A study of Mus musculus with 8 samples.

Results

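The 10 genes described here are components and secreted modulators of the Wnt pathway: the ligands Wnt5a and Wnt5b, the receptor Fzd5, the secreted modulators Sfrp1, Sfrp2, Dkk3 and Wif1, the nuclear factors Lef1 and Tcf7l2, and Axin2, a target gene that encodes a feedback inhibitor. They were chosen by gene symbol and not by a rule on their measured values, but with earlier results of these data known. All 10 were found among the 21829 genes. In the sorted postnatal retina, Sfrp2, Dkk3, Fzd5, Wnt5a, Wnt5b and Lef1 were at least 1.5-fold higher in the Cd73-negative fraction than in the Cd73-positive fraction at every stage measured. Axin2 was not: its level in the Cd73-positive fraction was 103%, 147% and 95.6% of that in the negative fraction at P2, P5 and P8. Of the genes higher throughout, Lef1 was nearest the threshold, at 1.51-fold at P5 and 1.54-fold at P8. It fell below 1.5-fold at P5 when the libraries were scaled in other ways. Sfrp2 had the widest range over the libraries, from 231.6 FPKM in the E15 retina to 1.02 FPKM in the P8 Cd73-positive fraction.

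Wnt proteins are secreted, lipid-modified signals that bind Frizzled receptors. In the canonical branch, receptor activation blocks the Axin and APC complex that otherwise targets beta-catenin for destruction, and beta-catenin then acts in the nucleus with factors of the TCF/LEF family. Other branches, of which Wnt5a is a well-known ligand, act through planar polarity and calcium signalling, and secreted proteins of the Sfrp and Wif families bind Wnts outside the cell. In the eye, Wnt signalling is known for its part in the patterning of the peripheral retina and the ciliary margin and in the growth of retinal vessels.

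RNA sequencing was done on whole retinas at E15 and E18 and on sorted retinal cells at P2, P5 and P8, all from mice of the ICR stock. For the sort, pooled retinas were dissociated with trypsin, stained with an antibody against Cd73, a surface enzyme found on rod precursors and rods, and split by flow cytometry into a fraction that carried it (Cd73PC) and a fraction that did not (Cd73NC). Cd73NC holds every cell type without the marker, such as progenitors, Müller glia, bipolar cells and amacrine cells. Each of the 8 conditions had 1 library, so a difference at a single stage has no test and no spread between animals is known, and the 1 test made was over the 3 postnatal stages. Values are FPKM, fragment numbers scaled for transcript length and for the mapped fragments of the library, and the range in parentheses after a value is the confidence interval that Cufflinks gave for that estimate within its library. Ratios are log2 ratios of FPKM + 1, on which a change in a gene of low FPKM is understated, and a gene was counted as higher in a library from a ratio of 1.5-fold. In bulk RNA of this kind, fewer cells of a type and less RNA per cell cannot be told apart.

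The sort was checked against its own target and against marker genes. Nt5e, which encodes Cd73, was at 97.3 FPKM in Cd73PC against 2.43 in Cd73NC at P2, 130.8 against 31.4 at P5 and 124 against 9.38 at P8. The summed FPKM of 8 rod markers was 4088, 8883 and 14078 in Cd73PC and 79.6, 1076 and 979.9 in Cd73NC, so rod RNA was present in Cd73NC at P5 and P8. Relative depth, read from the most common ratio of the lowest values, lay between 0.965 and 1.62 times that of the E18 library, and 11153 to 12413 genes reached 1 FPKM. The deposited FPKM of 8 of the 80 values of the 10 genes lay above its own upper bound, 6 of them of Dkk3 and 2 of Sfrp2, and the other 72 lay inside.

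The sequences before the transcription starts were searched for the core to which TCF/LEF factors bind, written as CTTTGAA or CTTTGAT or CTTTGTA or CTTTGTT on either strand. RefSeq windows of the 250 bases before a start were at hand for 7 of the 10 genes, 13 windows in all, in the build GRCm38.p6. Dkk3, Sfrp1 and Wnt5a had none in the table. One of the 4 words was found in 3 of the 13 windows, against 14.8% of all 32851 windows of that length. The 13 windows are not separate units, since 1 gene can have several, and some of those of Lef1 overlap. The 3 windows with a match are printed because they hold the letters that the nuclear factors of the list recognise, and those of Axin2 and Sfrp2 because they had the narrowest and the widest range of levels. Capitals mark the match.
Wnt5b, chr6:119449387-119449636, minus strand: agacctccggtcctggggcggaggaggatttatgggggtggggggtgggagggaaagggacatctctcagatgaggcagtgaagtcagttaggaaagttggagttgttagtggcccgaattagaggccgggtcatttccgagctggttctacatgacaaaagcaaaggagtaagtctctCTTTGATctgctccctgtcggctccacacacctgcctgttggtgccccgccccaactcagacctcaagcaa
Lef1, chr3:131156044-131156293, plus strand: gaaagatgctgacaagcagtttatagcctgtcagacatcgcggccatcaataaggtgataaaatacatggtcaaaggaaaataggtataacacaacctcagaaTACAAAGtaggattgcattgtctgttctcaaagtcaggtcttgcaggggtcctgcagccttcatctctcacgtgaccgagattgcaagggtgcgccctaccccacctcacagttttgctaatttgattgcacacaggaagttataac
Tcf7l2, chr19:55895071-55895320, plus strand: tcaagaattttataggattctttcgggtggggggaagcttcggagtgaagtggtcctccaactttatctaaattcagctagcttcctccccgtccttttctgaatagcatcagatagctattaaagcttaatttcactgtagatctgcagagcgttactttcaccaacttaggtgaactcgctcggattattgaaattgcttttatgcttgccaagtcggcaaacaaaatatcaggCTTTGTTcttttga
Axin2, chr11:108920099-108920348, plus strand: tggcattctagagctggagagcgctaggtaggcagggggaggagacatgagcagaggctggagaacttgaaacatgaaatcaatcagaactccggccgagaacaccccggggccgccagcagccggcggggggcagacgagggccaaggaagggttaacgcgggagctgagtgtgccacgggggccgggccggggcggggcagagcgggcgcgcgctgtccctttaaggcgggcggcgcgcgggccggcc
Sfrp2, chr3:83766071-83766320, plus strand: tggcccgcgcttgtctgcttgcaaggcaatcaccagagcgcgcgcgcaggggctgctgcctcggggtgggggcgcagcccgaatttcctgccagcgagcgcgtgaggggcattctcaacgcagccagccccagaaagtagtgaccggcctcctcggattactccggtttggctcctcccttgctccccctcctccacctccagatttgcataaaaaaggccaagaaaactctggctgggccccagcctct
The match in Wnt5b began 71 bases before the start and that in Tcf7l2 began 14 bases before it. In Lef1 the core was read on the opposite strand, 147 to 141 bases before the start. Each of these windows belongs to a start inside the gene, and each of the 3 genes has another window nearer its outer end in which none of the 4 words was found. Axin2 and Sfrp2 had 1 window each, without a match, and with 24 and 16 CpG dinucleotides against a median of 6 over all windows. The tables give 1 FPKM per gene, so the values below could not be divided among the starts, and a match describes letters only.

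Both ligands were higher in Cd73NC than in Cd73PC at all 3 stages, and neither fell in Cd73NC to the level of Cd73PC. Wnt5a (chr14:29318659-29338620, plus strand; this and all further gene positions are in mm9, the build of the tables) signals mainly outside the beta-catenin branch. Its FPKM was 0.994 (0.738 to 1.24) at E15 and 0.935 (0.697 to 1.18) at E18 in whole retina, 2.41 (2.01 to 2.80), 2.46 (2.04 to 2.87) and 1.73 (1.43 to 2.01) at P2, P5 and P8 in Cd73NC, and 0.438 (0.307 to 0.566), 0.423 (0.278 to 0.555) and 0.179 (0.0977 to 0.269) at the same stages in Cd73PC. The 3 Cd73NC libraries were the highest of the 8 and the 3 Cd73PC libraries the lowest, with the embryonic retinas between, and no interval of Cd73NC met one of Cd73PC. The log2 ratio of Cd73PC to Cd73NC was -1.24, -1.28 and -1.21 at P2, P5 and P8, with the Cd73PC value at 18.2%, 17.2% and 10.4% of the Cd73NC value.

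Wnt5b (chr6:119382549-119494365, minus strand), the closest relative of Wnt5a, had the highest mean FPKM of the 19 Wnt ligand genes. It measured 3.48 (2.69 to 4.22) at E15 and 2.44 (1.84 to 3.02) at E18. In Cd73NC it measured 6.41 (5.29 to 7.34), 8.71 (7.24 to 9.40) and 6.54 (5.44 to 7.05) at P2, P5 and P8, and in Cd73PC 1.61 (1.21 to 1.97), 1.29 (0.901 to 1.65) and 0.890 (0.594 to 1.17). The order of the groups was that of Wnt5a, with Cd73NC above the embryonic retina and Cd73PC below it, although the intervals of E18 and P2 Cd73PC overlapped. The log2 ratio was -1.51, -2.09 and -2.0 at P2, P5 and P8. Wnt5b was 2.61 to 4.96 times as high as Wnt5a in each library.

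Most other Wnt ligands were scarcely present: 14 of the 19 stayed below 1 FPKM in every library. At P2, P5 and P8, 4, 3 and 2 of the 19 were higher in Cd73NC and 0, 0 and 1 in Cd73PC. Of all genes, 14.4%, 15.6% and 18.6% were higher in Cd73NC, so the ligands as a list lay near that share. Only 4, 3 and 2 ligands reached 1 FPKM in either library of the pair, and these were the ones higher in Cd73NC. Over all genes at that level the shares were 25%, 27% and 31.3%. Some of the ligands, such as Wnt5a, reached it in Cd73NC only, so their entry was tied to the direction. The ligands summed to 17.9, 16.9 and 10.4 FPKM in Cd73NC at P2, P5 and P8, of which Wnt5a and Wnt5b made up 49.4%, 66.0% and 79.4%. In Cd73PC the sums were 5.54, 4.46 and 3.49 FPKM and the share of the pair was 36.9%, 38.3% and 30.6%. Wnt7b, a canonical ligand that falls outside the rule for naming genes and was picked after its values were seen, was the other ligand above 5 FPKM, at 5.10 and 5.65 FPKM in E15 and E18 retina. It went from 6.36 to 3.30 and 0.526 FPKM in Cd73NC, while Wnt5b kept 102% of its P2 level at P8. The sum of Wnt5a and Wnt5b was 8.82, 11.2 and 8.26 FPKM in Cd73NC, so their share rose from P5 to P8 while their sum fell.

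Fzd5 (chr1:64777132-64784324, minus strand) encodes a Frizzled receptor known from retinal progenitors. It was abundant in the embryonic retina and in Cd73NC and low in Cd73PC. The FPKM was 46.1 (44.4 to 48.2) at E15 and 47.9 (46.3 to 49.9) at E18. In Cd73NC it was 41.1 (40.0 to 42.8), 33.6 (32.1 to 35.2) and 19.7 (18.8 to 20.7) at P2, P5 and P8, and in Cd73PC 10.7 (10.1 to 11.3), 6.18 (5.66 to 6.71) and 4.48 (4.07 to 4.90). The 5 libraries that were not Cd73PC were all above the 3 that were, and only the E15 and E18 intervals overlapped among neighbours in that order. The log2 ratio was -1.85, -2.27 and -1.92 at P2, P5 and P8, and the level declined in both fractions, to 48.0% of P2 in Cd73NC and 42% in Cd73PC by P8. Fzd5 was 51.6% of the summed FPKM of the 10 Frizzled genes at E18, 43.4% to 32.4% in Cd73NC and 23.2% to 27.3% in Cd73PC.

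**Figure D1:**
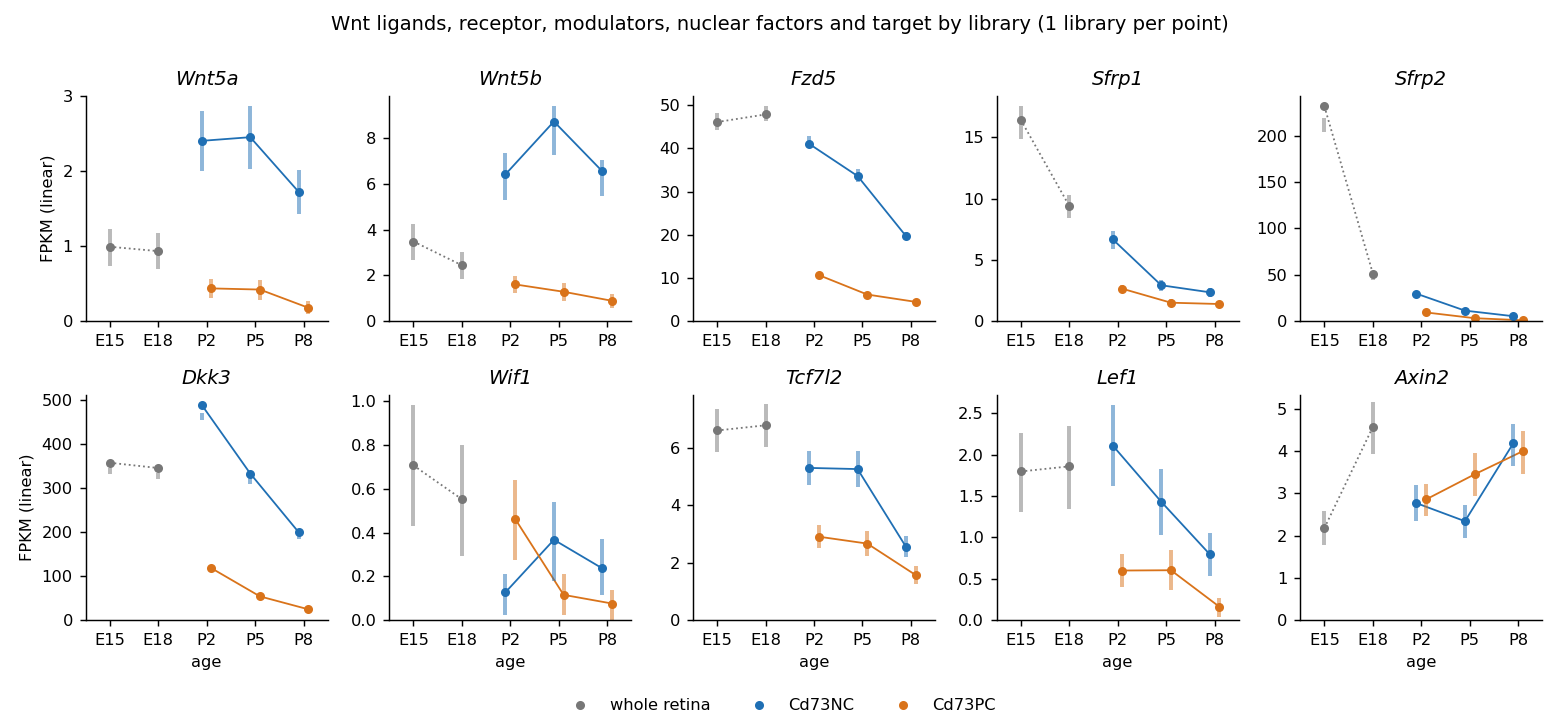
FPKM (linear axis, a separate scale per gene) of the 10 genes against age in whole retina (grey), Cd73NC (blue) and Cd73PC (orange); each point is 1 library and each bar its Cufflinks confidence interval. Wnt5a, Wnt5b, Fzd5, Dkk3 and Sfrp2 lay higher in Cd73NC at each postnatal stage, while the Axin2 intervals of the fractions overlapped at P2 and P8.

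The secreted modulators held both the highest and the lowest values of the set. Sfrp1 and Sfrp2, secreted Frizzled-related proteins that bind Wnts, were highest at E15, Dkk3 was the most abundant of the 10 genes in 8 of 8 libraries, and Wif1 stayed below 1 FPKM throughout. Sfrp2 (chr3:83570243-83578236, plus strand) measured 232 (204 to 219) at E15 and 51.4 (44.2 to 51.4) at E18, 29.7 (25.4 to 30.0), 11.4 (9.39 to 12.3) and 5.42 (4.34 to 6.23) at P2, P5 and P8 in Cd73NC, and 9.46 (7.82 to 9.93), 3.26 (2.46 to 4.03) and 1.02 (0.652 to 1.36) in Cd73PC. The E15 and E18 values lay above their own intervals. Each later library of a series was lower than the one before it, and of the neighbours in the order of all 8 libraries only P5 Cd73NC and P2 Cd73PC had overlapping intervals. From E15 to E18 the log2 ratio was -2.15, from P2 to P8 it was -2.26 in Cd73NC and -2.38 in Cd73PC, and between the fractions it was -1.55, -1.54 and -1.67 at P2, P5 and P8. On FPKM + 1 the fractions were 2.94, 2.92 and 3.18-fold apart, while both declined with age. On plain FPKM, where the low P8 values are not damped, they were 3.14, 3.50 and 5.33-fold apart.

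Sfrp1 (chr8:24521974-24560104, plus strand) measured 16.4 (14.9 to 17.6) at E15 and 9.41 (8.37 to 10.3) at E18. In Cd73NC it was at 6.67 (5.92 to 7.34), 2.93 (2.49 to 3.36) and 2.36 (2.01 to 2.71) at P2, P5 and P8, and in Cd73PC at 2.65 (2.28 to 2.99), 1.51 (1.22 to 1.80) and 1.40 (1.13 to 1.67). The order of the libraries was the same as for Sfrp2, but the fractions came closer with age, with log2 ratios of -1.07, -0.65 and -0.48 at P2, P5 and P8. At P8 the ratio was under 1.5-fold, although the intervals of the fractions did not overlap, and quantile normalization turned its sign, to 0.069. Sfrp2 was 14.1 times as high as Sfrp1 at E15, 2.30 times in P8 Cd73NC and 0.724 times in P8 Cd73PC.

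Dkk3 (chr7:119259533-119302571, minus strand) is a divergent member of the Dickkopf family of secreted proteins, whose other members block Wnt co-receptors. The embryonic retinas measured 358 (332 to 347) at E15 and 346 (321 to 335) at E18. Cd73NC measured 489 (455 to 469), 333 (309 to 322) and 199.8 (185 to 194) at P2, P5 and P8, and Cd73PC 118 (109 to 115), 54.4 (49.6 to 55.0) and 25.1 (22.6 to 25.9). The 2 embryonic values, the 3 Cd73NC values and that of P2 Cd73PC lay above their own intervals, and so an overlap of intervals says little here. Cd73NC at P2 was the highest library and all 3 Cd73PC libraries were below all others. The log2 ratio of the fractions was -2.04, -2.59 and -2.94 at P2, P5 and P8, the widest gap of the 10 genes at each stage on this scale. On plain FPKM, Dkk3 was 4.13, 6.12 and 7.96-fold higher in Cd73NC, and other genes had wider ratios: Wnt5a with 5.50-fold at P2 and 9.61-fold at P8, and Wnt5b with 6.78-fold at P5. At P8 Cd73PC held 12.6% of the Cd73NC level. Over the 8 libraries the mean FPKM of Dkk3 was above that of 99.1% of all genes.

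The shares of Dkk3 and Sfrp2 changed with age among the 17 inhibitor genes, most of them secreted, of a wider list of Wnt genes. At E15 Dkk3 was 49.7% and Sfrp2 32.2% of the summed FPKM of that list. In P2 Cd73NC the shares were 75.4% and 4.58%, and in P8 Cd73NC both were lower, at 60.6% and 1.64%. The ratio of Dkk3 to Sfrp2 went from 1.54 at E15 to 6.72 at E18 and 36.9 in P8 Cd73NC, where Dkk3 itself had fallen to 40.9% of its P2 level.

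Wif1 (chr10:120471060-120537698, plus strand), which encodes Wnt inhibitory factor, measured 0.706 (0.428 to 0.979) at E15 and 0.552 (0.295 to 0.797) at E18. It was at 0.128 (0.0233 to 0.210), 0.367 (0.180 to 0.540) and 0.237 (0.117 to 0.372) at P2, P5 and P8 in Cd73NC and at 0.462 (0.274 to 0.640), 0.116 (0.0265 to 0.212) and 0.0768 (0 to 0.140) in Cd73PC. At P2 Cd73PC was the higher fraction and the intervals did not overlap, while at P5 and P8 they did. The log2 ratio was 0.37, -0.29 and -0.20 at P2, P5 and P8, under 1.5-fold at each stage. With a pseudocount of 0.1 or none, Wif1 passed 1.5-fold in opposite directions, in favour of Cd73PC at P2 and of Cd73NC at P5 and P8. All 7 pairs of neighbours in the order of libraries overlapped, while E15, the highest, lay apart from P2 Cd73NC, P8 Cd73NC, P5 Cd73PC and P8 Cd73PC.

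Lef1 and Tcf7l2 encode DNA-binding partners of beta-catenin, and both were lower in Cd73PC. Tcf7l2 (chr19:55816300-56008145, plus strand) measured 6.59 (5.85 to 7.33) at E15 and 6.77 (6.02 to 7.52) at E18. It was at 5.29 (4.71 to 5.88), 5.25 (4.63 to 5.88) and 2.55 (2.18 to 2.91) at P2, P5 and P8 in Cd73NC and at 2.91 (2.50 to 3.31), 2.67 (2.22 to 3.11) and 1.57 (1.25 to 1.90) in Cd73PC. The level in Cd73NC held from P2 to P5 and had dropped by P8 to that of the younger Cd73PC libraries. The log2 ratio between the fractions was -0.69, -0.77 and -0.46 at P2, P5 and P8, past 1.5-fold at P2 and P5 and within it at P8, where the intervals still lay apart but quantile normalization turned the sign, to 0.073.

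Lef1 (chr3:130813389-130926249, plus strand) measured 1.80 (1.31 to 2.26) at E15 and 1.86 (1.35 to 2.34) at E18, then 2.11 (1.62 to 2.59), 1.43 (1.03 to 1.83) and 0.798 (0.536 to 1.05) at P2, P5 and P8 in Cd73NC and 0.602 (0.400 to 0.801), 0.605 (0.362 to 0.845) and 0.164 (0.0425 to 0.276) in Cd73PC. Its intervals in the fractions did not overlap at any of the 3 stages, while those of E15, E18, P2 Cd73NC and P5 Cd73NC overlapped from one neighbour to the next. The log2 ratio was -0.96, -0.60 and -0.63 at P2, P5 and P8, and at P5 this was 1.51-fold, just past the threshold. Among the 4 genes of the TCF/LEF family, Tcf7l2 was 24.0% to 39.6% and Lef1 4.13% to 14.6% of the summed FPKM in a library.

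Axin2 (chr11:108781663-108812095, plus strand), a scaffold of the beta-catenin destruction complex and a target of the canonical branch in many tissues, stood apart from the other genes above 1 FPKM. It measured 2.18 (1.77 to 2.58) at E15 and 4.57 (3.93 to 5.16) at E18, a log2 ratio of 0.81 with intervals apart. In Cd73NC it measured 2.77 (2.34 to 3.19), 2.34 (1.95 to 2.72) and 4.19 (3.66 to 4.64) at P2, P5 and P8, and in Cd73PC 2.86 (2.46 to 3.23), 3.45 (2.94 to 3.96) and 4.0 (3.46 to 4.47). The fractions overlapped at P2 and P8, and at P5 Cd73PC was higher with intervals apart but a ratio of 1.33-fold on FPKM + 1. The highest library was 2.1 times the lowest, against 4.31 to 228 times for the other 9 genes, and the 7 pairs of neighbours in its order all overlapped. From P5 to P8 it rose in Cd73NC by 0.63 on the log2 scale, while Tcf7l2 fell by 0.82 and Lef1 had a log2 ratio of -0.44, within 1.5-fold and with overlapping intervals. Its paralog Axin1, picked after its values were seen, was 2.97 to 9.75 times as high as Axin2 and was also near equal in the fractions, with log2 ratios of -0.29, 0.05 and -0.13 at P2, P5 and P8.

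Counted together, 8, 8 and 6 of the 10 genes were higher in Cd73NC at P2, P5 and P8, and 0 were higher in Cd73PC at any of the stages. Of all genes, 14.4%, 15.6% and 18.6% were higher in Cd73NC at these stages. Over genes that reached 1 FPKM in either library of the pair, called expressed genes from here on, it was 25%, 27% and 31.3%, and the share higher in Cd73PC was 14.5%, 12.3% and 13%. Of these 10 genes 9, 9 and 8 reached that level, and 8, 8 and 5 of those were higher in Cd73NC. Lef1 was below 1 FPKM in both P8 libraries. The 6 genes higher in Cd73NC at all 3 stages compare with 7.83% of all genes, and with 13.1% of those that reached 1 FPKM in any sorted library. The median log2 ratio of the 10 was -1.16, -1.03 and -0.92, beside -0.14, -0.18 and -0.23 for all genes at 1 FPKM or more. Quantile normalization left 7, 5 and 5 of the 10 higher in Cd73NC, ending the calls of Tcf7l2 at P2 and P5, Sfrp1 at P5 and Lef1 at P5 and P8, and put Axin2 past 1.5-fold in Cd73PC at P5. Of the 6 genes higher throughout, only Lef1 was lost under any alternative to these ratios that was run.

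The 3 stages also entered 1 joint test, chosen after the data were seen. By the study's account the fractions of a stage came from the same retinas, so each stage gives a pair, and limma was fitted with fraction and stage as terms over the 13057 genes that reached 1 FPKM in a sorted library, with 2 residual degrees of freedom. Sfrp1, Sfrp2, Dkk3, Fzd5, Wnt5a, Wnt5b and Tcf7l2 were higher in Cd73NC at an adjusted p under 0.05, 7 of the 9 genes of the set that were tested, beside 19.2% of all tested genes, and 0 of the 9 were higher in Cd73PC, beside 8.91%. Wnt5a and Lef1 reached 1 FPKM in Cd73NC libraries only, the fraction where they were higher. Their entry into the test was thus tied to the direction tested, and the call of Wnt5a is no independent support. The differences, Cd73PC minus Cd73NC on log2(FPKM + 1), were -2.52 ± 0.20 (SE, adjusted p = 0.00290) for Dkk3, -2.01 ± 0.15 (SE, adjusted p = 0.00281) for Fzd5 and -1.86 ± 0.20 (SE, adjusted p = 0.00426) for Wnt5b. They were -1.59 ± 0.15 (SE, adjusted p = 0.00353) for Sfrp2 and -1.24 ± 0.19 (SE, adjusted p = 0.00981) for Wnt5a. These 5 genes were lower in Cd73PC at 3 of 3 stages and kept the call under quantile normalization and with a pseudocount of 0.1. Over this fit and its 7 alternatives the adjusted p ran from 0.00273 to 0.0740 for Dkk3, from 0.00281 to 0.0734 for Fzd5, from 0.00426 to 0.0776 for Wnt5b, from 0.00353 to 0.225 for Sfrp2 and from 0.00685 to 0.123 for Wnt5a. Sfrp1, with -0.73 ± 0.20 (SE, adjusted p = 0.0466), and Tcf7l2, with -0.64 ± 0.17 (SE, adjusted p = 0.0462), lay just inside the threshold. Of the 7 alternatives, only the pseudocount of 0.1 kept their calls, which were lost under quantile normalization and all the rest. Lef1, with -0.73 ± 0.21 (SE, adjusted p = 0.0519), lay just outside the threshold and passed with a pseudocount of 0.1. The adjusted p of these 3 genes ran from 0.0331 to 0.334, from 0.0361 to 0.366 and from 0.0286 to 0.249. For Axin2 the difference was 0.13 ± 0.19 (SE, adjusted p = 0.623), and Wif1 did not reach 1 FPKM and was not tested. Without P5 the genes called were 2, Dkk3 and Fzd5, without P2 or P8 they were 5, and with no filter on low values they were 0, as for all 21813 genes then tested. The spread in this test is the way the gap between the fractions varied among stages, not that between animals of 1 stage.

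**Figure D2:**
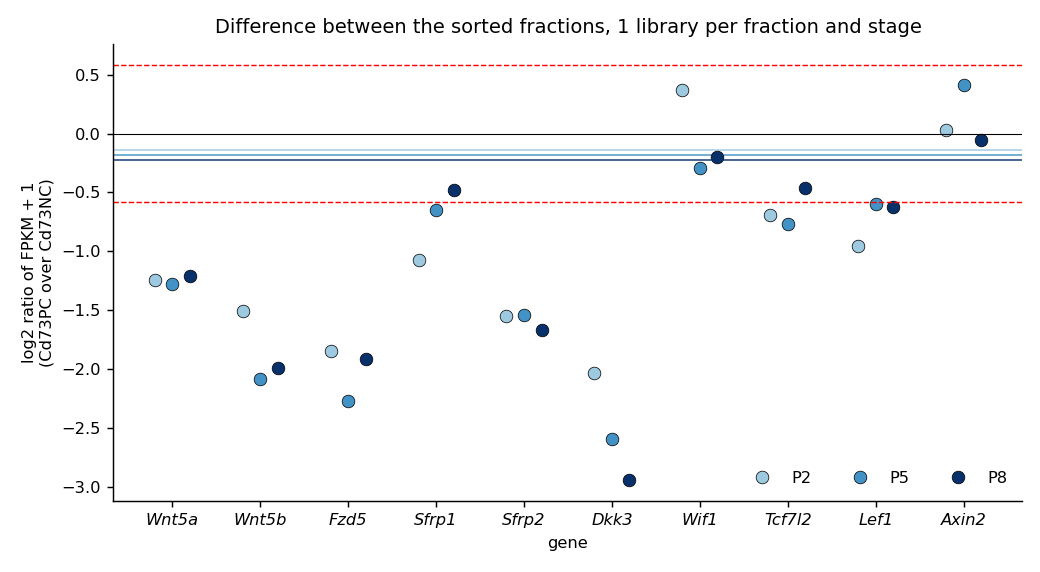
Log2 ratio of FPKM + 1 in Cd73PC over Cd73NC for each gene at P2, P5 and P8 (light to dark points, 1 library per fraction); dashed red lines mark 1.5-fold and the thin blue lines the medians of all genes with at least 1 FPKM in either library, -0.14, -0.18 and -0.23. Dkk3 was the lowest gene at each stage, down to -2.94 at P8, and Axin2 and Wif1 stayed between the dashed lines at all 3 stages.

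The course with age differed among the 10 genes. Between E15 and E18, Sfrp1 and Sfrp2 fell past 1.5-fold and Axin2 rose past it, while 7 genes stayed within it. Of genes at 1 FPKM or more in either whole retina library, 3.47% were higher at E15 and 7.59% at E18. From P2 to P8, 6 of the 10 fell in Cd73NC (Sfrp1, Sfrp2, Dkk3, Fzd5, Lef1 and Tcf7l2), with 14.3% of all genes and 24% of expressed genes higher at P2. In Cd73PC 5 of the 10 fell (the same without Lef1), with 14.7% of all and 25.7% of expressed genes higher at P2. In neither fraction was a gene of the set higher at P8, as were 21.6% of expressed genes in Cd73NC and 11.2% in Cd73PC. The count in Cd73PC was 9 with a pseudocount of 0.1 or none and 3 under either scaling. These comparisons share libraries with those between the fractions and are not independent of them.

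The fall from E15 to the sorted libraries could not be separated from the change of sample, since the embryonic libraries were unsorted. Retinal ganglion cells, whose markers summed to 839 FPKM at E15 and 529 at E18, were at no more than 14.6 FPKM in any sorted library. Within the sorted libraries, marker sums differed too, and not all of them in the way of the 10 genes. The 7 progenitor markers were lower in Cd73PC in 7 of 7 genes at each stage, at 25.1%, 27.5% and 22% of the Cd73NC sum. That sum fell with age, from 1709.8 to 456 and 102 FPKM in Cd73NC and from 429.5 to 125 and 22.6 in Cd73PC, and Mki67, a marker of dividing cells, fell from 40.4 to 2.27 FPKM in Cd73NC. The 8 Müller glia markers were lower in Cd73PC in 6, 7 and 7 genes, at 61.8%, 31.2% and 33.3% of the Cd73NC sum, which was 618, 1247 and 1114 FPKM at P2, P5 and P8, against 382, 389 and 371 in Cd73PC. In Cd73NC the Müller glia sum was thus higher at P8 than at P2, while 6 of the 10 Wnt genes were lower at P8. The rise was mostly that of Apoe, at 110, 518 and 540 FPKM in Cd73NC at P2, P5 and P8. From P2 to P8 Glul fell there from 261 to 165 FPKM and Slc1a3 from 146 to 124, while the rest of the list rose. At P2 Apoe and Clu were higher in Cd73PC, at 162 against 110 FPKM and 16.3 against 2.25 FPKM. None of the markers of either list was below 1 FPKM in every library.

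The 6 markers of the ciliary margin were lower in Cd73PC in 4, 5 and 5 genes and stood at 57.3%, 24.3% and 30.8% of Cd73NC, with sums of 37.2 to 69.2 FPKM in Cd73NC and 11.4 to 21.8 in Cd73PC. These sums were mostly Cdon, at 24.5 to 54.2 FPKM in Cd73NC, and Zic1, at 5.99 to 11.3. Msx1, Wfdc1 and Otx1 were below 1 FPKM in every sorted library. Gja1 was higher in Cd73PC at P2, at 4.19 against 1.13 FPKM. The 6 endothelial markers were lower in Cd73PC in 5, 2 and 6 genes. Their sum stood at 20.9%, 24.5% and 17.5%, but it was mostly Kdr, which neural cells of the retina also express, at 67.5 to 143 FPKM in Cd73NC, and at P5 Pecam1, Cdh5, Tek and Esam were higher in Cd73PC. Tek stayed below 1 FPKM in every library. Pigment epithelium, astrocyte and microglia markers summed in P2 Cd73PC to 1532%, 999% and 580% of P2 Cd73NC, at sums of 25.4 to 35.5 FPKM in Cd73PC, with 2 of 7, 0 of 4 and 0 of 5 genes lower in Cd73PC, so the P2 fractions also differed in markers of cells that are not neurons. The part of each cell type in the differences of the Wnt genes was not tested.

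**Figure D3:**
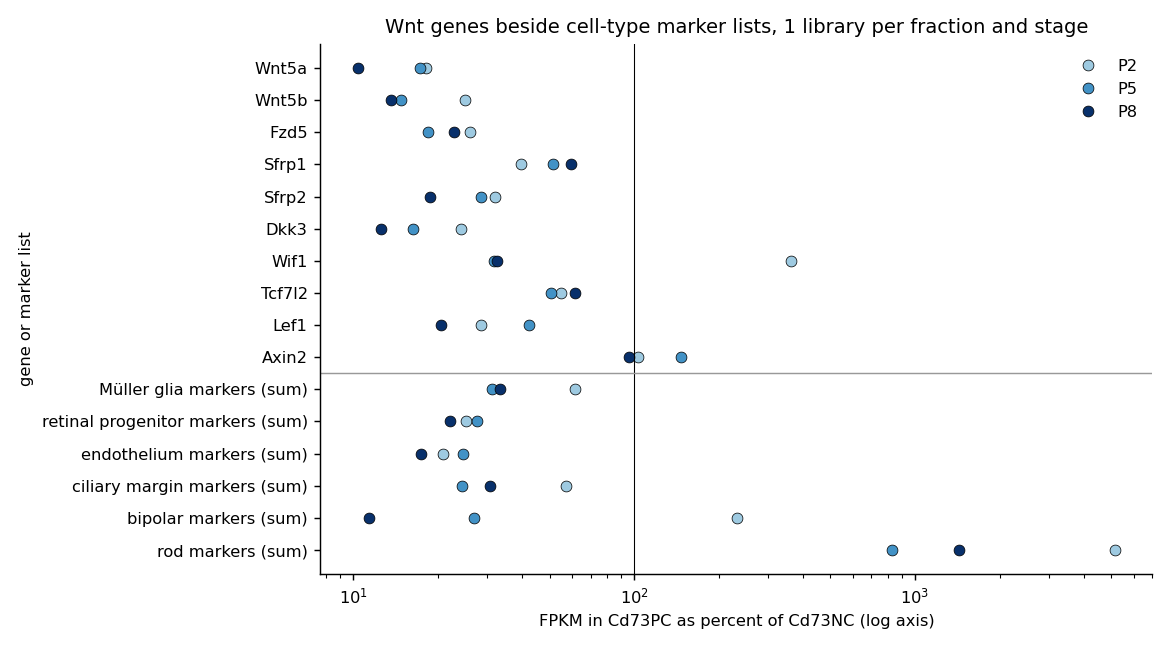
FPKM in Cd73PC as a percent of Cd73NC (log axis) at P2, P5 and P8 for the 10 genes (above the line) and for the summed markers of 6 cell types (below it), 1 library per fraction and stage. Dkk3, Fzd5, Wnt5a and Wnt5b lay between 10.4% and 26.0%, the progenitor markers between 22% and 27.5%, and Axin2 between 95.6% and 147%, while rod markers were at 826% or more.

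A wider list of 127 Wnt pathway genes, grouped by role and holding the 10, gave 117 other genes. Of these, 33, 47 and 47 were higher in Cd73NC at P2, P5 and P8, and 13, 4 and 4 were higher in Cd73PC. At all 3 stages 26 were higher in Cd73NC, or 22.2%, and 2 in Cd73PC, or 1.71%, where 3.51% of all genes were higher in Cd73PC throughout. Among them 81, 83 and 79 reached 1 FPKM at the 3 stages. The share of the wider list in Cd73NC was above that of all genes and below the 6 of 10 of the named set. At the single stages, 14.4%, 15.6% and 18.6% of all genes were higher in Cd73NC, and 25%, 27% and 31.3% of expressed genes. In Cd73PC it was 14.5%, 12.3% and 13% of expressed genes. The counts of each role list below are to be read beside these shares.

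Of the 22 receptors and co-receptors, Fzd5 included, 9, 15 and 9 were higher in Cd73NC at P2, P5 and P8, and 3, 0 and 0 in Cd73PC. Fzd3, a Frizzled known for planar polarity and axon guidance, had log2 ratios of -1.33, -2.44 and -2.23, and Fzd2 of -1.01, -1.86 and -1.88. Ryk, a co-receptor with the highest mean level of the list, was at 36.8, 35.1 and 19.7 FPKM in Cd73NC and 35.7, 23.7 and 19.1 in Cd73PC, within 1.5-fold at each stage. Fzd4, the receptor of Norrin, was picked after its values were seen and went the other way at P2, with log2 ratios of 0.77, 0.47 and 0.54.

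Among the 17 inhibitors, most of them secreted, 5, 8 and 8 were higher in Cd73NC and 1, 0 and 0 in Cd73PC. Dkk3, Apcdd1, Igfbp4 and Sfrp2 were higher in Cd73NC at all 3 stages. Apcdd1, a membrane-bound inhibitor of Wnt signals, ran against the course of Dkk3 in Cd73NC: its FPKM there rose from 5.82 to 23.0 and 35.8, and was at 1.17, 5.16 and 5.21 in Cd73PC. Igfbp4, which binds insulin-like growth factors and can block Wnt receptors, fell from 97.5 to 53.7 FPKM in Cd73NC and from 45.7 to 9.69 in Cd73PC.

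Of 8 genes of the secretion machinery and R-spondins, 1, 2 and 4 were higher in Cd73NC and 3, 1 and 1 in Cd73PC. Rspo2, a secreted protein that strengthens Wnt signals through Lgr receptors, was higher in Cd73PC at all 3 stages, at 31.6, 9.89 and 6.84 FPKM against 3.41, 3.82 and 0.532 in Cd73NC. Ndp, which encodes Norrin, a ligand of Fzd4 outside the Wnt family, was lower there, with log2 ratios of -1.16, -1.63 and -1.81. Porcn, the acyltransferase that adds the lipid to Wnts, was within 1.5-fold at P2 and P5 and reached 32.0 FPKM in Cd73NC against 14.3 in Cd73PC at P8.

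Of 17 cytoplasmic transduction genes, 1, 3 and 4 were higher in Cd73NC and 1, 0 and 0 in Cd73PC. In Cd73NC this was below the share of expressed genes at each stage. Ctnnb1, which encodes beta-catenin, was at 334, 253 and 219 FPKM in Cd73NC and 252, 171 and 173 in Cd73PC, lower each time but within 1.5-fold, with the widest ratio at P5 (1.47-fold). Apc2, a relative of Apc found in neurons, was past it at each stage, with log2 ratios of -1.97, -2.12 and -2.62. Of 16 nuclear factors, 7, 9 and 11 were higher in Cd73NC and 2, 1 and 1 in Cd73PC, among them the co-repressors Tle3, with log2 ratios of -1.27, -2.39 and -2.50, and Tle1, with -1.16, -1.52 and -2.19. The TCF gene Tcf7l1 had wider ratios than Lef1 or Tcf7l2, at -1.11, -1.40 and -1.75, and the co-repressor Ctbp1, the most abundant of the list, had -0.42, -0.53 and -0.77.

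Of 17 genes of the planar polarity and calcium branch, on which Wnt5a can act, 6, 7 and 6 were higher in Cd73NC and 3, 2 and 1 in Cd73PC. Prickle1, a cytoplasmic planar polarity protein, was higher in Cd73PC at all 3 stages and rose there from 5.44 to 7.35 and 14.2 FPKM, against 0.740, 2.24 and 4.54 in Cd73NC. The membrane proteins Celsr2 and Vangl2 of the same branch were lower in Cd73PC, with log2 ratios of -1.18, -1.52 and -1.49 and of -0.75, -1.85 and -1.59. Rhoa, a GTPase used in many settings, was near equal, with -0.03, 0.02 and 0.17.

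Of 21 genes often cited as beta-catenin targets, Axin2 and Lef1 included, 10, 12 and 13 were higher in Cd73NC and 3, 0 and 0 in Cd73PC. The cyclin gene Ccnd1 measured 839, 1084 and 1095 FPKM in E15 retina, E18 retina and P2 Cd73NC, and 272 in P2 Cd73PC. By P8 it was at 41.8 and 9.31. The hyaluronan receptor gene Cd44 had log2 ratios of -2.08, -2.51 and -2.33 and Sox9, a factor of progenitors and Müller glia, had -1.42, -2.38 and -2.19. Ccnd1 is also one of the progenitor markers counted above, so it is no separate measure here. Axin2, within 1.5-fold at each stage, was not among the 10 targets of the list that were higher in Cd73NC throughout. It was not alone in this, since Nkd1, Sp5, Myc, Lgr5, Tcf7, Rnf43, Znrf3, Notum, Dkk1 and Bmp4 were not among them either. Of these, Sp5, Rnf43, Dkk1 and Bmp4 stayed below 1 FPKM in every library. The rest did not share 1 pattern. Nkd1 and Myc, picked after their values were seen, were lower in Cd73PC at each stage. Their log2 ratios were -0.52, -0.33 and -0.66 for Nkd1 and -0.36, -0.57 and -1.02 for Myc. Notum and Lgr5 were past 1.5-fold in opposite directions at P2 and P5, and Tcf7 was higher in Cd73PC by 1.5-fold at P2 only. Znrf3, picked after its values were seen, had log2 ratios of 0.12, -0.42 and 0.07.

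**Figure D4:**
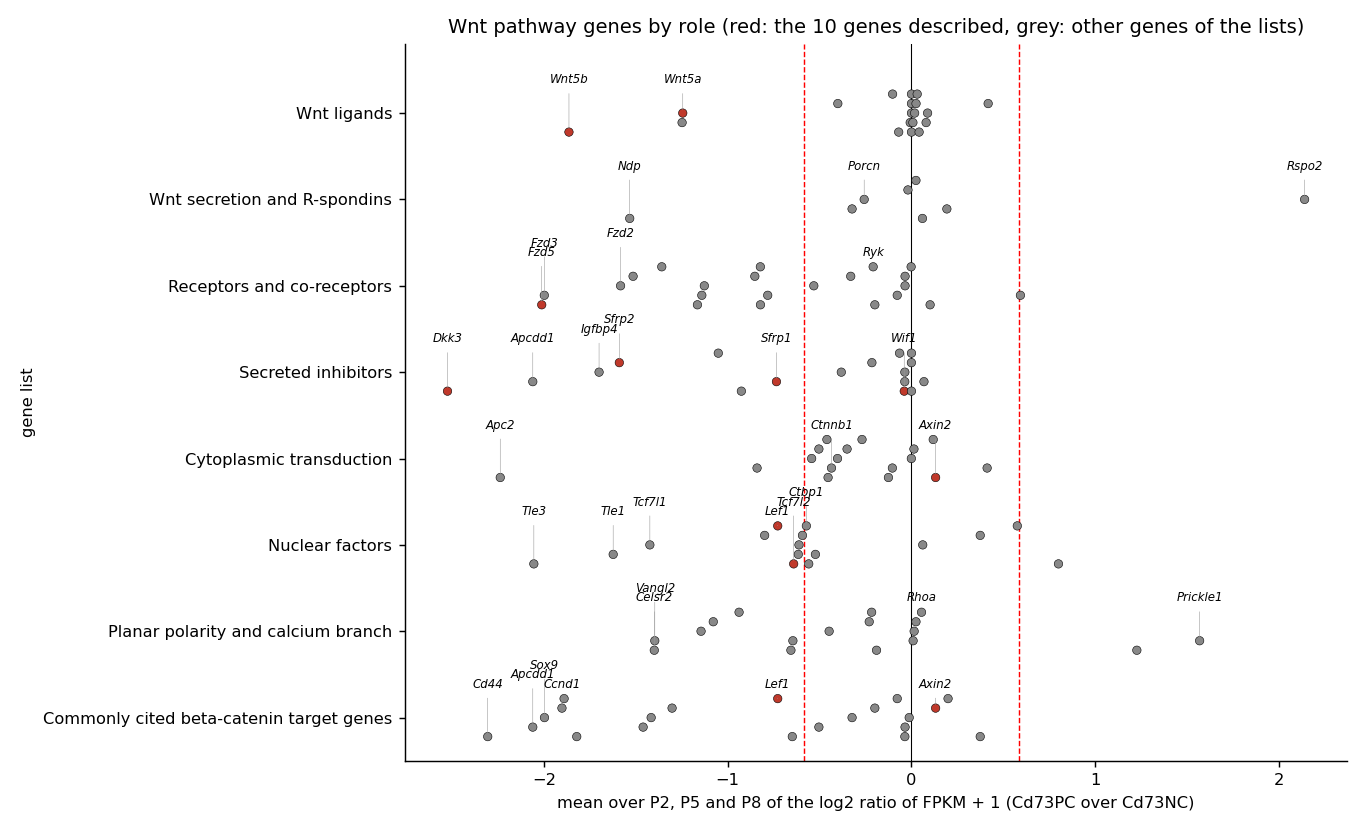
Mean over P2, P5 and P8 of the log2 ratio of FPKM + 1 in Cd73PC over Cd73NC for each gene of 8 Wnt lists (1 point per gene, a gene can stand in more than 1 list; dashed lines mark 1.5-fold). Dkk3 lay farthest to the left and Rspo2, with 2.14, farthest to the right.

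Over the 8 libraries some pairs of the set followed each other on the log2 scale. Pearson's r was 0.98 for Sfrp1 with Sfrp2, 0.98 for Wnt5a with Wnt5b and 0.97 for Dkk3 with Fzd5, while r of Axin2 with the other 9 lay between -0.46 and -0.33. Between Sfrp2 and Wnt5a it was 0.36. The points are 8 libraries that share the sort, and these values are a description only. Among 8802 genes that reached 10 FPKM in some library, those most like Dkk3 were Nudt4, Fkbp9 and Jam3, with r of 0.996 or more. Those most like Fzd5 were Ephb2, Lamb2 and Fam69c, those most like Sfrp2 were Shc1, Prkcd and Cdc25a, and those most like Sfrp1 were Elavl4, Penk and Fstl4. For Wnt5b they were Rgs16, Syt11 and Manea, for Wnt5a Pcid2, Plat and Rgs16, for Tcf7l2 Lrp5, Mn1 and Spata13, and for Lef1 Ctdsp1, Mrto4 and Stk38. Axin2 had no gene as close, the highest being Zfand2a at 0.87. Each was picked as the highest of 8802 or more values over 8 points.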

How the data were processed

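The data were polyadenylated RNA of 8 samples of mouse retina, 1 library per condition, read as single ends of 36 bases. Per the submitters' processing notes, base calls were made with CASAVA 1.8.2 and bcl2fastq 1.8.4, reads were aligned to mm9 with TopHat2 2.0.8b, and Cufflinks 2.1.1 estimated expression. For each library the authors deposited 23021 rows of FPKM, with the limits of a confidence interval and the state of the estimate. These values are divided by transcript length and by mapped fragments; read counts were not used here, so only a relative depth could be read. Small RNA rows (795) were left out, the rows of 251 symbols with more than 1 row were summed, and failed estimates (4 to 10 per library) were taken as missing.

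Ratios were computed as log2(FPKM + 1) in Python 3.11.15 with numpy 2.4.6 and pandas 2.3.3, and plots were made with matplotlib 3.10.9. A gene was called from 1.5-fold. The study also used 1.5-fold, but on absolute values, and on FPKM + 1 fewer genes of low FPKM pass. Without a pseudocount, 8, 9 and 9 of the 10 genes were higher in Cd73NC at P2, P5 and P8. With 1 library per group no test was made at a single stage. Over the 3 stages, limma 3.58.1 in R 4.3.3 was fitted to log2(FPKM + 1) of the 6 sorted libraries with fraction and stage as terms, a trend in the variance and Benjamini-Hochberg adjustment over 13057 genes. This fit was chosen after the data were seen. The steps were checked on simulated data. Promoter windows are RefSeq sequences of GRCm38.p6, cut to the bases before the start. The tables give gene positions in mm9, and no coordinate was converted. The wider list held 129 symbols, of which 127 were matched. Draxin was not, and Gpr177 is an older symbol of Wls, which was. From each list the text names the gene with the highest mean FPKM and up to 3 genes past 1.5-fold in the same direction at all 3 stages with the largest mean ratio, and for each of the 10 genes up to 3 with the closest pattern. Of the 16 marker lists, Tfap2a and Tfap2b were not matched, and 1 progenitor marker is not reported here and was left out of the sums. The genes and lists were chosen with earlier results of these data known. Alternatives were other pseudocounts, scalings, thresholds and filters.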

Additional observations from a re-analysis of the deposited data

Results flagged for a closer look

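Outside the 10 genes, 7 genes of the wider Wnt list were past 1.5-fold in opposite directions at different stages, on the log2 ratio of FPKM + 1 in Cd73PC over Cd73NC. With 1 library per fraction and stage, the difference between the stages was not tested. All 7 were higher in Cd73PC at P2. The ratios at P2, P5 and P8 were 2.03, 1.52 and -1.15 for Tle2, a co-repressor of TCF/LEF factors. They were 1.21, 0.052 and -0.68 for Wls, the carrier that takes Wnts to the cell surface, and 1.06, -1.28 and -0.75 for Notum, an enzyme that removes the lipid from Wnts. The planar polarity gene Prickle2 had ratios of 0.72, -1.67 and -2.49, opposite at P5 and P8 to its relative Prickle1. The secreted inhibitor Sostdc1 had 0.74, -0.68 and -1.20. The receptors Fzd10 and Lgr5 had 0.67, -0.60 and 0.23 and 0.59, -1.09 and -0.10. None of the 10 genes was past 1.5-fold in opposite directions at any pair of stages on FPKM + 1, but with a pseudocount of 0.1 or none Wif1 was, higher in Cd73PC at P2 and in Cd73NC at P5 and P8.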

How the results depend on the processing

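No ratio of the 10 genes that was past 1.5-fold changed direction: 179 of 179 alternative values of the 36 such ratios kept their sign. Of the 24 ratios within 1.5-fold, 5 turned under quantile normalization (Sfrp1, Tcf7l2 and Axin2 between the fractions at P8, Lef1 and Tcf7l2 between E15 and E18). Sfrp2, Dkk3, Fzd5, Wnt5a and Wnt5b were higher in Cd73NC at P2, P5 and P8 under each alternative of pseudocount, scaling, threshold, filter and non-overlapping bounds. Lef1 was lost at P5 under both scalings, at P8 under quantile normalization and when 1 FPKM was required, and at each stage with a 2-fold threshold. Upper quartile scaling moved the median expressed gene between the fractions by 0.08, 0.11 and 0.09 (log2) at P2, P5 and P8, and quantile normalization by 0.11, 0.19 and 0.25.

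Without a pseudocount, 1 of the 10 genes (Wif1) was higher in Cd73PC at P2, 2 (Wif1 and Axin2) were higher at P8 in Cd73NC, and 9 were higher at P2 than P8 in Cd73PC; with 0.1 these were 1, 0 and 9. Under both, Wif1 joined the genes higher in Cd73NC at P5 and P8, 9 at each. Under quantile normalization the genes higher in Cd73PC at P5 were 1 (Axin2) and in Cd73NC 5, and in Cd73PC over time 3 fell and 1 (Axin2) rose; upper quartile scaling also left 3 that fell. A 2-fold threshold left 5 higher in Cd73NC at P5, 0 higher at E18, 1 at E15 and 3 that fell in Cd73PC.

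Of the 117 other Wnt genes, those higher in Cd73PC were 21 at P2, 12 at P5 and 8 at P8 without a pseudocount, 12 at P5 with 0.1, 9 at P5 under quantile normalization, and 6 at P2 and 2 at P8 at 2-fold. From E15 to E18, 16 rose and 12 fell with 0.1, 19 and 15 without a pseudocount, 6 rose under quantile normalization, and 3 rose and 1 fell at 2-fold. From P2 to P8 in Cd73NC 28 rose without a pseudocount and 11 fell at 2-fold. In Cd73PC 11 rose with 0.1, 12 under quantile normalization and 2 at 2-fold, where 15 fell. The other 134 of 168 alternative counts stayed within 1.5 times the reported one. The cause of these shifts was not tested.

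In the limma fit with stage as the block, 7 of the 10 genes were higher in Cd73NC (adjusted p under 0.05). Without the block they were 3 (Fzd5, Wnt5a and Wnt5b), with no filter on low values 0 of 10, although 5573 of all genes had an unadjusted p under 0.05, and leaving out each stage in turn gave 2 to 5; 0 were higher in Cd73PC in each of these fits. These alternatives were chosen after seeing the data, and leaving out 1 library at a single stage leaves no ratio there. The Cufflinks bounds cover the estimate within a library and not the spread between animals. Values below 1 FPKM, such as all of Wif1 and the Cd73PC values of Wnt5a and Lef1, have intervals that are wide for their size.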

Other observations

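Markers of further retinal cell types also differed between the sorted libraries, given here as the summed FPKM in Cd73PC as a percent of Cd73NC at P2, P5 and P8. The 7 bipolar cell markers stood at 232%, 27.0% and 11.4%, with 1, 5 and 7 of the genes lower in Cd73PC, and their sum in Cd73NC rose from 5.24 to 961 FPKM. The 6 cone markers stood at 223%, 76.0% and 122%, with 1, 6 and 3 lower. The 4 horizontal cell markers stood at 138%, 41.9% and 36.8%, with 2, 2 and 1 lower, at sums of at most 2.97 FPKM in a sorted library. The 5 amacrine markers that were matched stood at 139%, 150.0% and 386%, and here the direction was that of Slc6a9, at 47.9, 72.3 and 50.7 FPKM in Cd73PC and 6.56, 40.7 and 10.4 in Cd73NC, while Gad1, Gad2 and Slc32a1 were lower in Cd73PC at each stage and Chat stayed below 1 FPKM throughout.

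Of lists for cells outside the neural retina, the 4 pericyte markers stood at 74.6%, 64.1% and 13.9%, with 1, 4 and 4 of the genes lower in Cd73PC. The 5 mesenchyme markers stood at 81.8%, 69.2% and 20.2%, with 2, 3 and 3 lower, and the 6 lens markers at 71.1%, 30.1% and 38.0%, with 2, 3 and 3 lower. The lens sums were at most 2.15 FPKM in a sorted library. Astrocyte, microglia and pigment epithelium markers, which were higher in Cd73PC at P2, stood at 27.1%, 66.7% and 146% at P5.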
